A study of Mus musculus with 6 samples.

Results

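WNT ligands are secreted, lipid-modified glycoproteins that carry signals between neighbouring cells. The 9 genes described here (Wnt2b, Wnt4, Wnt5a, Wnt5b, Wnt7a, Wnt9a, Wnt10b, Wnt11 and Wnt16) were chosen by name, and every probe set whose annotation gives 1 of them as its single gene was taken. Of the 9 genes, 6 had a probe set in the table of expression values, with 11 probe sets between them of 30618 in all. Wnt5a had 4 probe sets, Wnt4 and Wnt5b had 2 each, and Wnt7a, Wnt9a and Wnt11 had 1 each. Wnt2b, Wnt10b and Wnt16 had none and were not analysed here. The mouse has 19 WNT ligand genes, and 3 more of them (Wnt6, Wnt7b and Wnt8b) had 1 probe set each.

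A WNT ligand binds a frizzled receptor together with a coreceptor. In the canonical branch, with LRP5 or LRP6 as coreceptor, β-catenin is stabilised and acts with TCF/LEF factors on target genes. In the non-canonical branches, for which Wnt5a and Wnt11 are the best-known ligands, signalling runs through cell polarity or calcium pathways, often with the ROR receptors. FRZB is a secreted frizzled-related protein that binds WNT ligands outside the cell and keeps them from their receptors. In the skeleton, WNT signals take part in joint formation, in the maturation of growth plate chondrocytes and in bone formation.

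Total RNA of the tibial plateau was measured on 6 Affymetrix Mouse Genome arrays, 1 array per mouse. The Frzb-/- mice of the comparison were animals 14 and 17, and the wild-type mice were animals 6-1, 8-1 and 9-1. All were males of the C57Bl/6J strain aged 6 weeks. The Frzb-/- line had been back-crossed into that background. The dissected piece held the articular cartilage, the bone under it with trabeculae and marrow, and the top of the growth plate, so a value is a level over all of these tissues, and fewer cells of a type and less RNA per cell cannot be told apart.

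A further mouse, animal 6, is labelled Frzb-/- and is given apart from both groups throughout. According to the paper, a mouse presumed to be Frzb-/- clustered with the wild-type mice and proved heterozygous on re-genotyping. It was left out of the study's analysis, and neither the labels nor the methods give its number. Animal 6 was set apart because its whole profile lay with the wild-type mice. Pearson correlations of its array over all probe sets were 0.957 with animal 14 and 0.940 with animal 17, against 0.983 to 0.991 with each wild-type mouse, and animals 14 and 17 correlated at 0.988 with each other. The level of Frzb did not set it apart in the same way. At the brighter of 2 probe sets (1416658_at) Frzb stood at 7.02 in animal 14 and 6.42 in animal 17, at 6.93 in animal 6, and at 10.02, 10.79 and 10.16 in wild-type animals 6-1, 8-1 and 9-1 (log2 expression). The log2 fold change of the Frzb-/- mice over the wild-type mice was -3.61 (SE 0.27, limma adjusted p = 0.000994), and animal 6 lay between the Frzb-/- mice. At the other probe set (1448424_at) it read 5.34, near the 5.22 and 4.92 of animals 14 and 17 and below the 8.12, 8.96 and 8.08 of the wild-type mice. With animal 6 placed in the Frzb-/- group, 0 of the 30618 probe sets passed with both limits described below and 3 had an adjusted p under 0.05 (3534 at an unadjusted p under 0.05). Every count of genes that passed in the lists below was therefore 0 in that grouping, and the calls of single ligands are given both ways.

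The question put to the ligands was whether their RNA differed between mice with and without Frzb. Differences were tested with limma, two-sided, with Benjamini-Hochberg adjustment over all 30618 probe sets, and passing took both an adjusted p under 0.01 and a log2 fold change past 1 in size. By that rule 0 of the 11 ligand probe sets passed in either direction, where 2.34% of all probe sets passed as higher and 5.09% as lower in the Frzb-/- mice. Taking the brightest probe set for each gene, 3 of the 6 genes had an unadjusted p under 0.05, as did 39.2% of all probe sets. At an adjusted p under 0.05 with no limit on the fold, 4 of the 11 ligand probe sets were higher in the Frzb-/- mice and 0 were lower, where 11.7% of all probe sets were higher and 14.8% lower (26.5% either way). These 4 belonged to Wnt9a, Wnt5a (2 probe sets) and Wnt5b. In 7 of the 11 both Frzb-/- arrays lay above all 3 wild-type arrays, which held for 27.5% of all probe sets, and in 0 of the 11 did both lie below, which held for 28.1%. The median log2 fold change over the 11 ligand probe sets was 0.34, beside 0.02 over all probe sets, and the values spanned -0.10 to 1.01. Probe sets of 1 gene share that gene's RNA and are not independent of each other.

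**Figure D1:**
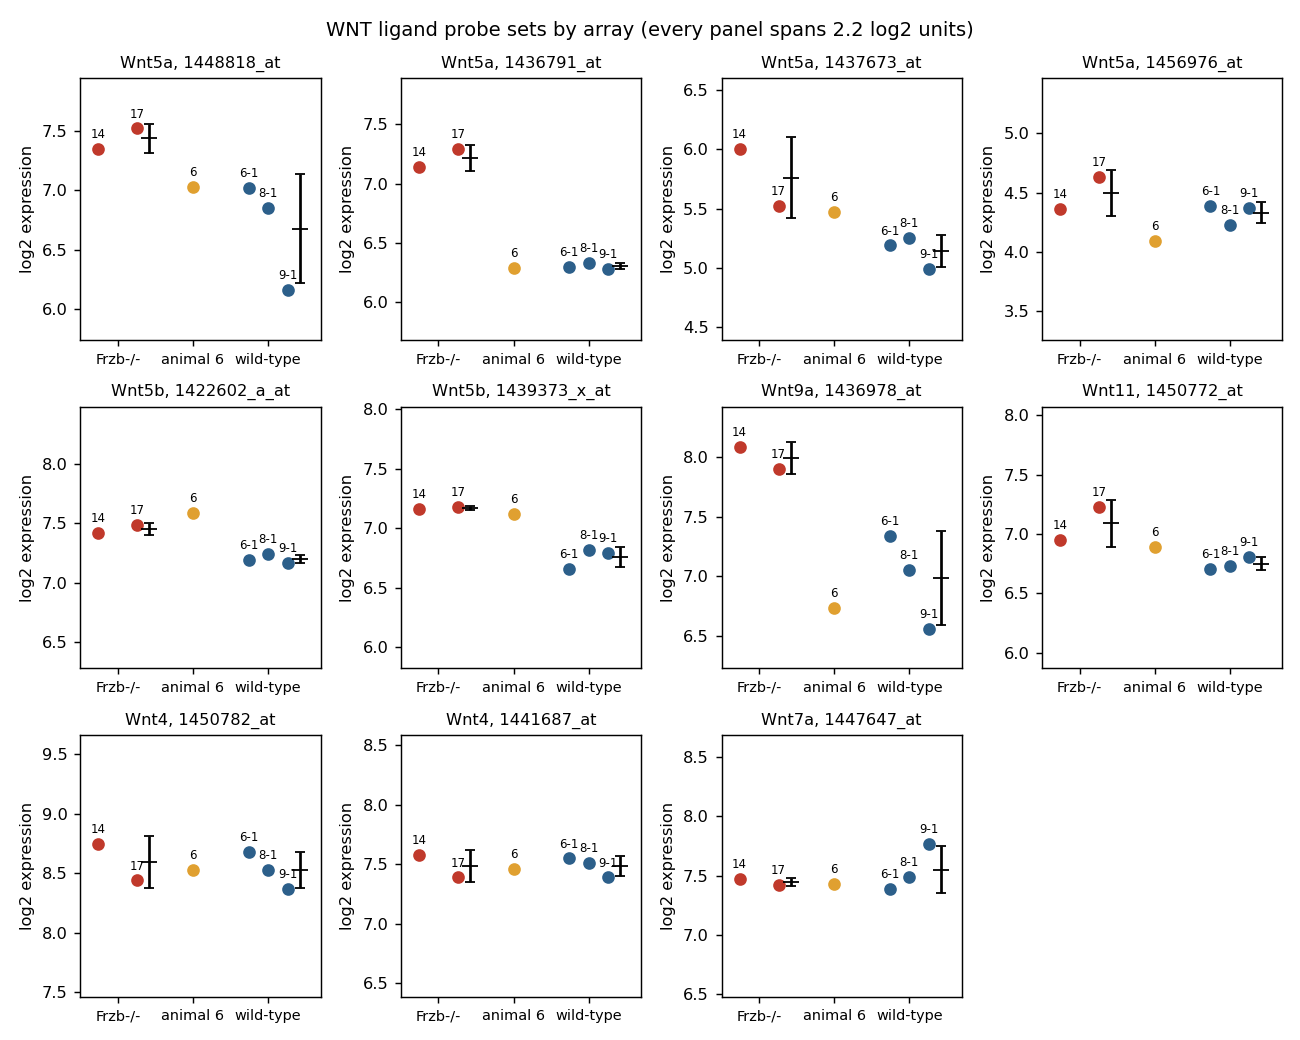
Log2 expression of the 11 ligand probe sets, 1 panel each, for the Frzb-/- mice (red, animals 14 and 17), animal 6 (yellow) and the wild-type mice (blue); black bars give mean ± SD for the groups of 2 and 3 arrays. Both red points lie above all blue points for Wnt9a, Wnt11, both Wnt5b probe sets and 3 of the 4 Wnt5a probe sets, and the points of both groups mix for Wnt4 and Wnt7a.

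Wnt9a, which in mouse embryos is expressed in forming joints and helps to keep them from turning into cartilage, showed the largest difference of the ligands. Its probe set (1436978_at) read 8.09 in animal 14 and 7.90 in animal 17, and 7.34, 7.05 and 6.56 in wild-type animals 6-1, 8-1 and 9-1, with 6.73 in animal 6. The lowest Frzb-/- value stood 0.56 above the highest wild-type value, although the wild-type mice themselves spread over 0.78. The means were 8.00 ± 0.13 in the Frzb-/- mice (SD, n = 2) and 6.98 ± 0.39 in the wild-type mice (SD, n = 3). This gave a log2 fold change of 1.01 (SE 0.23, 95% interval 0.47 to 1.55), a 2.02-fold higher level, with a limma adjusted p of 0.0187, so that the fold was past its limit and the stricter p was not. Animal 6 lay inside the wild-type range, and with it in the Frzb-/- group the log2 fold change was 0.59 with an adjusted p of 0.516. The call at 0.05 did not hold without animal 14 (adjusted p = 0.0891), without animal 17 (0.0693) or without wild-type animal 8-1 (0.0568), while the log2 fold change stayed between 0.80 and 1.19 over all 5 arrays left out in turn. Over all alternatives its adjusted p ranged from 0.0101 to 0.516.

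Wnt9a lies on mouse chromosome 11, at positions 59306849 to 59333552 of GRCm38.p6. The 250 bases before the start site that RefSeq gives for it are shown because it had the largest fold of the members. That start site lies inside the span given above, so the last bases of the window do too.
Wnt9a, chr11:59306680-59306929, plus strand: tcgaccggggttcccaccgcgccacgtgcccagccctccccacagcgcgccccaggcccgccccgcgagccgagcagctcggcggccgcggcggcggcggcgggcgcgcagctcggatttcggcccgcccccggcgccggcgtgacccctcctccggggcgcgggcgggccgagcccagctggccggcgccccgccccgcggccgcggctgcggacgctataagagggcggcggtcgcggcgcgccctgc
These bases are 84.4% G or C. They hold no match to the TCF/LEF core CTTTGA on either strand.

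Wnt5a, a ligand that signals mainly through ROR and frizzled receptors without β-catenin and that drives limb outgrowth in mouse embryos, was read by 4 probe sets that did not all tell the same. At 1436791_at it stood at 7.14 and 7.29 in animals 14 and 17, and at 6.30, 6.33 and 6.28 in the wild-type mice, with 6.29 in animal 6. The wild-type values lay within 0.06 of each other and the gap to the Frzb-/- values was 0.81, the widest of any ligand probe set. That is a log2 fold change of 0.91 (SE 0.12, 95% interval 0.63 to 1.19), a 1.88-fold higher level (limma adjusted p = 0.00264), which passed the p limit of 0.01 and fell short of the fold limit. This call at 0.05 held without each of the 5 arrays in turn (log2 fold change 0.84 to 0.98, adjusted p 0.00825 to 0.019). With animal 6, which read as the wild-type mice did, in the Frzb-/- group, the log2 fold change was 0.60 (adjusted p = 0.429), and without moderation of the spread the adjusted p was 0.0522.

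The brightest Wnt5a probe set (1448818_at) gave 7.35 and 7.52 in animals 14 and 17, 7.03 in animal 6, and 7.02, 6.85 and 6.16 in wild-type animals 6-1, 8-1 and 9-1. Both Frzb-/- arrays were again the highest, but wild-type animal 9-1 lay well below the other wild-type mice. The log2 fold change of 0.76 (SE 0.25, 95% interval 0.16 to 1.36) did not pass at 0.05 (limma adjusted p = 0.0668), and without wild-type animal 6-1 it did (0.93, adjusted p = 0.0458). Without wild-type animal 9-1 the log2 fold change was 0.50 (adjusted p = 0.0615). The third probe set (1437673_at) gave 6.00 and 5.52 in animals 14 and 17, 5.47 in animal 6, and 5.19, 5.25 and 4.99 in the wild-type mice. Its log2 fold change was 0.62 (SE 0.17, limma adjusted p = 0.0394). Without animal 17 the call at 0.05 held (0.86, adjusted p = 0.0286). It was lost without animal 14 (0.38, adjusted p = 0.159), without each of the 3 wild-type arrays (adjusted p 0.0754 to 0.0929) and with animal 6 in the Frzb-/- group (0.52, adjusted p = 0.428). The dimmest one (1456976_at) gave 4.36 and 4.63 in animals 14 and 17 and 4.39, 4.23 and 4.37 in the wild-type mice, with 4.09 in animal 6. There the groups overlapped, with a log2 fold change of 0.17 (95% interval -0.15 to 0.48, adjusted p = 0.404). In both groups this probe set was dim, between percentiles 8.35 and 11.5 of all probe sets. Wnt5a lies on chromosome 14, at positions 28504543 to 28527448, and which part of its transcripts each probe set reads was not examined.

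Wnt5b, a close relative of Wnt5a that is expressed in growth plate chondrocytes, differed by less, and its arrays within each group lay close together. At the brighter probe set (1422602_a_at) it stood at 7.42 and 7.49 in animals 14 and 17, and at 7.19, 7.24 and 7.17 in the wild-type mice. Its log2 fold change was 0.25 (SE 0.11, 95% interval -0.01 to 0.52), which did not pass at 0.05 (limma adjusted p = 0.143). At the other one (1439373_x_at) the values were 7.16 and 7.18 in animals 14 and 17 and 6.66, 6.82 and 6.79 in the wild-type mice. There the log2 fold change was 0.41 (SE 0.12, 95% interval 0.13 to 0.69, adjusted p = 0.0411), and the call at 0.05 was lost when any 1 of the 5 arrays was left out (log2 fold change 0.37 to 0.45, adjusted p 0.0832 to 0.134) and with animal 6 in the Frzb-/- group (0.40, adjusted p = 0.428). The ending of that probe set's name marks probes that can also match other transcripts, so its signal may not be that of Wnt5b alone.

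At Wnt5b animal 6 stood with the Frzb-/- mice. Wnt5b there read 7.59 at the brighter probe set, the highest of all 6 arrays, and 7.12 at the other, above each wild-type array at both. Animal 6 minus the wild-type mean was 0.39 (SE 0.14, 95% interval 0.05 to 0.73) and 0.36 (SE 0.15, 95% interval 0.01 to 0.71). With the spread taken from the other groups, the limma adjusted p was 0.678 and 0.693, and the unadjusted p was 0.0289 and 0.0466. Over all 11 ligand probe sets, animals 14, 17 and 6 all lay above the wild-type arrays in 5 (both of Wnt5b, 2 of Wnt5a and that of Wnt11), which held for 11.0% of all probe sets. Animal 6 alone lay above every wild-type array in 5 of the 11 and below in 1 of them, where 34.4% and 22.7% of all probe sets did so. Against the wild-type mice 0 of the 11 passed at an adjusted p under 0.05 in animal 6, as did 0.0131% of all probe sets, and 2 of the 11 had an unadjusted p under 0.05, as did 7.18%.

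Wnt11, a non-canonical ligand that guides branching of the mouse ureteric bud, gave 6.95 and 7.23 in animals 14 and 17 and 6.71, 6.73 and 6.81 in the wild-type mice, with 6.89 in animal 6 (1450772_at). The groups did not overlap, and the gap between them was 0.14. The log2 fold change was 0.34 (SE 0.13, 95% interval 0.03 to 0.66), a 1.27-fold higher level that did not pass at 0.05 (limma adjusted p = 0.105) nor under any alternative that was run (adjusted p 0.0633 to 0.434). Without animal 17 it was 0.20, and without animal 14 it was 0.48.

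Wnt5b lies on the minus strand of chromosome 6, at positions 119432531 to 119544824, and Wnt11 on chromosome 7, at positions 98835084 to 98854747. RefSeq gives 3 start sites for Wnt5b and 2 for Wnt11, and at 1 start site of each the 250 bases before it hold the TCF/LEF core, read as CTTTGA or, from the other strand, TCAAAG. Those sequences are shown with the core in capitals and were picked because they hold it. Both start sites lie inside the spans given above.
Wnt5b, chr6:119449387-119449636, minus strand: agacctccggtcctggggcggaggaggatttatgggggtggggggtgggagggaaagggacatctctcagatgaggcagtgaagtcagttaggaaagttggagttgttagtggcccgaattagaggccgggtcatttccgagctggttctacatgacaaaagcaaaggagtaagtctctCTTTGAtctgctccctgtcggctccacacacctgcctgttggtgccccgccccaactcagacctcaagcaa
Wnt11, chr7:98834862-98835111, plus strand: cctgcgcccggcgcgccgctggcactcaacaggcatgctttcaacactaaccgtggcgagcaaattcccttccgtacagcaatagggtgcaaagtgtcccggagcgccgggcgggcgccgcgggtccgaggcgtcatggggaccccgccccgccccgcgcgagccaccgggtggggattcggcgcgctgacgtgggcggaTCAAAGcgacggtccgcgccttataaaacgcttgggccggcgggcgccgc
The core begins 71 bases before the start site in Wnt5b and 50 bases before it in Wnt11. Over the 8 start sites that RefSeq gives for 5 of the measured members (Wnt4, Wnt5b, Wnt7a, Wnt9a and Wnt11), 2 hold it, as do 13.8% of all 32851 windows of that length. A match to letters in a window is a description of the sequence alone.

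At Wnt4 and Wnt7a the arrays of both groups overlapped. Wnt4, which with Wnt9a is expressed in the forming joints of mouse embryos, stood at 8.75 and 8.44 in animals 14 and 17 and at 8.68, 8.53 and 8.37 in the wild-type mice at its brighter probe set (1450782_at), with 8.53 in animal 6. A log2 fold change of 0.07 had a 95% interval of -0.29 to 0.44 (limma adjusted p = 0.761). At the second probe set (1441687_at) it was 0.00, with an interval of -0.30 to 0.30 (adjusted p = 0.999). Wnt7a, the dorsal signal of the developing mouse limb, gave 7.47 and 7.42 in animals 14 and 17, 7.43 in animal 6, and 7.39, 7.49 and 7.77 in the wild-type mice (1447647_at). Its log2 fold change was -0.10, with an interval of -0.45 to 0.24 (adjusted p = 0.637). Across these probe sets the intervals reached from -0.45 to 0.44 on the log2 scale, and differences inside each probe set's own interval are compatible with its values.

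**Figure D2:**
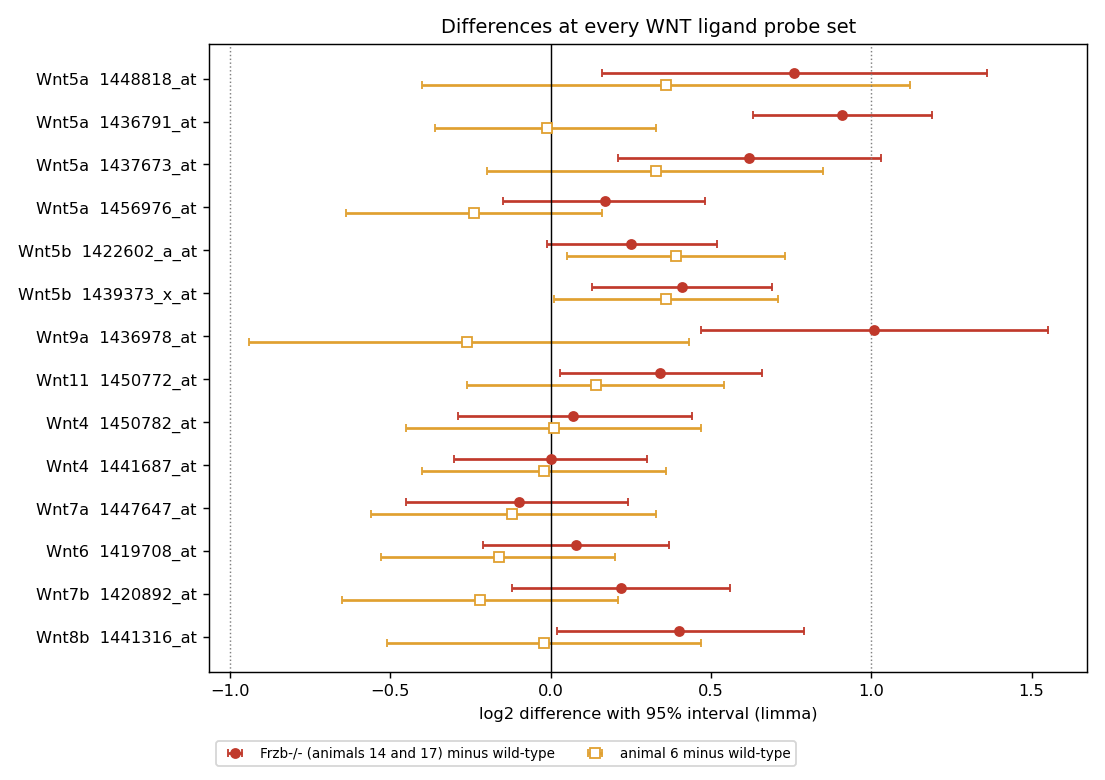
Log2 differences with 95% intervals from limma at all 14 WNT ligand probe sets, for the Frzb-/- mice minus the wild-type mice (red circles) and for animal 6 minus the wild-type mice (yellow squares); dotted lines mark -1 and 1. The largest red values are those of Wnt9a (1.01) and Wnt5a (0.91 at 1436791_at), where the yellow squares lie at -0.26 and -0.01, while for Wnt5b both marks lie between 0.25 and 0.41.

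The ligands outside the 9 genes gave small differences as well. Log2 fold changes were 0.08 for Wnt6 (limma adjusted p = 0.66), 0.22 for Wnt7b, which promotes osteoblast differentiation (adjusted p = 0.303), and 0.40 for Wnt8b (adjusted p = 0.114). Wnt8b, known from the developing forebrain, was the dimmest of them with 4.41 and 4.71 in animals 14 and 17 and 4.32, 3.94 and 4.20 in the wild-type mice, and its groups did not overlap. The authors had already taken out absent probe sets. Of 23 genes that such tissue is not expected to use, the 7 with a probe set in the table had means from 2.92 to 11.08, a span too wide to set a floor under these values.

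Several lists of cell type markers also differed between the groups, and each is given as the sum of its linear signal. The 4 measured adipocyte markers summed to 22249 and 22696 in the Frzb-/- mice, to 8810 in animal 6, and to between 10702 and 15468 in the wild-type mice. Of these 4, 1 (Adipoq, log2 fold change 1.21, limma adjusted p = 0.00824) passed with the fold limit and 4 passed at 0.05. The 8 fibroblast and synovium markers summed to 59486 to 61743 in the Frzb-/- mice, 41448 in animal 6 and 29262 to 36575 in the wild-type mice, with 4 passing as higher. Bright genes such as Prg4, Dcn and Lum carry most of that sum, and Pi16 of the same list was lower at 0.05 (log2 fold change -0.89, limma adjusted p = 0.00887). For the 6 smooth muscle and pericyte markers the sums were 20677 to 21670 in the Frzb-/- mice, 8600 in animal 6 and 9262 to 14006 in the wild-type mice, with 3 passing as higher. Without animal 17 each of these counts was 0. The adipocyte count was also 0 without animal 14, 8-1 or 9-1 and was 2 without animal 6-1, the fibroblast and synovium count was 1 without animal 14 or 8-1 and 2 without animal 9-1, and the smooth muscle count lay between 2 and 4 without any other mouse.

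Erythroid and neutrophil markers were lower in the Frzb-/- mice. The 5 erythroid markers summed to 2460 to 3343 in the Frzb-/- mice, 21301 in animal 6 and 16119 to 22304 in the wild-type mice, and all 5 passed as lower, also without each array in turn. The 7 neutrophil markers summed to 18715 to 26979 in the Frzb-/- mice, 80905 in animal 6 and 70202 to 93157 in the wild-type mice, and all 7 passed as lower, 4 without wild-type animal 8-1 and 2 without animal 17. The monocyte and macrophage list was mixed, with a median log2 fold change of 0.13, 2 of 6 passing as lower (Ccr2 and Mpeg1) and Cd14 higher at 0.05 (0.67, limma adjusted p = 0.011). The chondrocyte markers that define the labelled cartilage were present, with 8 of 8 measured, sums of 70945 to 80496 in the Frzb-/- mice and 67165 to 89232 in the wild-type mice, and 0 passing (median log2 fold change -0.08). RMA sets all arrays to 1 common distribution, so the share of marrow RNA and the level of a ligand in other cells cannot be told apart.

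Beside these lists, the ligands fell into different patterns over the 6 arrays. Wnt9a was high in animals 14 and 17, intermediate in wild-type animal 6-1 and low in wild-type animal 9-1 and animal 6. The adipocyte, smooth muscle and pericyte, and skeletal muscle sums also had animal 6-1 as the highest and 9-1 as the lowest of the wild-type mice. In these lists animal 6 lay below the wild-type mice. The endothelium sum had the same wild-type order, with animals 14 and 17 above the wild-type range and animal 6 inside it, as at Wnt9a. Of the 6 endothelium genes 0 passed either way. Emcn (log2 fold change 1.1, limma adjusted p = 0.016) and Tek (0.65, adjusted p = 0.0243) were higher. Vwf, the brightest of that list in the wild-type mice, was lower (-0.55, adjusted p = 0.0381). Wnt5b was above the wild-type range in animal 6, and so were the hypertrophic chondrocyte sum (15153, against 6056 to 8333 in the wild-type mice) and the fibroblast and synovium, chondrocyte, osteoblast and osteocyte, and osteoclast sums, whereas the marrow lists of animal 6 lay inside the wild-type range. The arrays of both groups overlapped at Wnt4 and Wnt7a. They also overlapped in the skeletal muscle, hypertrophic chondrocyte, chondrocyte, osteoblast and osteocyte, and osteoclast sums. In the adipocyte, smooth muscle and pericyte, endothelium, and fibroblast and synovium sums they did not. Of the 6 osteoblast and osteocyte genes, Mepe passed as lower (log2 fold change -1.59, limma adjusted p = 0.00127) and 0 passed as higher. Phex was also lower (-0.81, adjusted p = 0.0209), and the median of that list was -0.24. Its bright genes Col1a1 (0.27, adjusted p = 0.128) and Ibsp (0.16, adjusted p = 0.399) went the other way without passing. The part of cell composition in the ligand values was not tested.

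**Figure D3:**
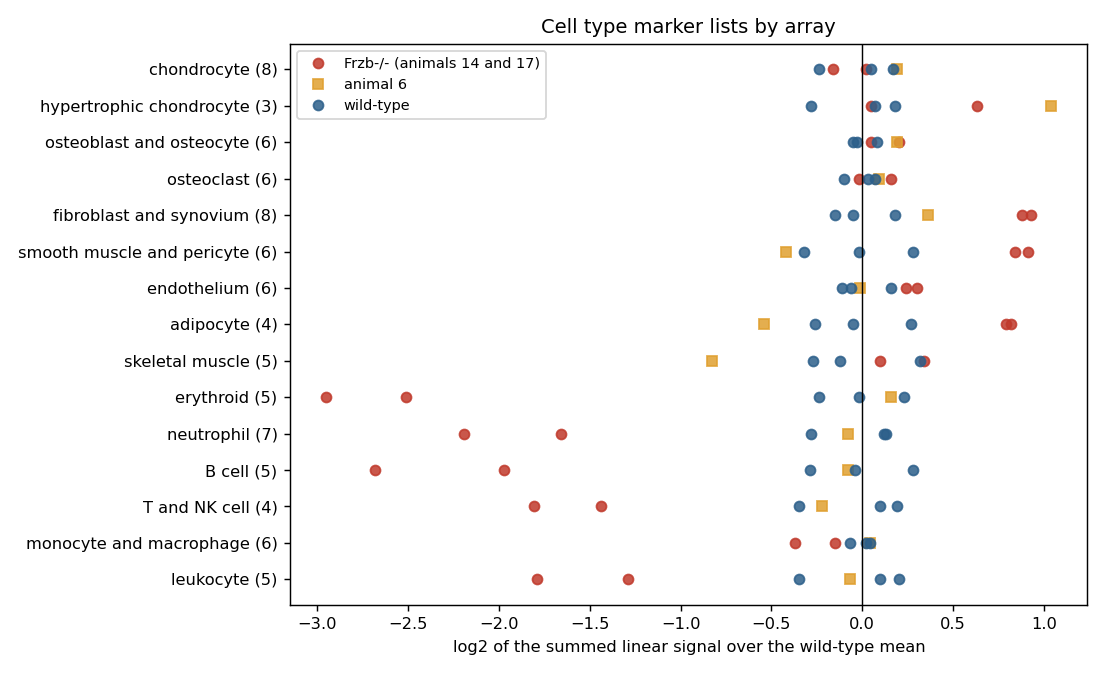
Summed linear signal of each marker list (genes measured in brackets) on each array, as log2 over the wild-type mean, for the Frzb-/- mice (red), animal 6 (yellow squares) and the wild-type mice (blue). The erythroid sum lies at -2.51 and -2.95 in the Frzb-/- mice, the adipocyte sum at 0.82 and 0.79, and animal 6 lies at 0.16 and -0.54 on these lists.

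For the 3 members whose brightest probe set varied most, the genes with the most similar pattern were taken by Pearson correlation over the 6 arrays, among probe sets of 1 gene that varied at least as much. For Wnt9a, out of 2233 candidates, these were Sncg (0.998), which encodes γ-synuclein, Slc7a10 (0.997), an amino acid transporter, and Cav1 (0.997), the coat protein of caveolae. For Wnt5a at its brightest probe set, out of 3995, they were Cpeb1 (0.995), an RNA-binding regulator of translation, Flrt2 (0.984), a cell adhesion protein, and Qsox1 (0.984), a sulfhydryl oxidase. For Wnt11, out of 15389, they were Top2b (0.995), a DNA topoisomerase, D10Wsu102e (0.995) and Pigk (0.994), part of the GPI anchor transamidase. These 6 arrays fall into separate groups, so the correlations only describe a likeness.

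The ligands can be set beside the rest of their pathway, in lists with the brightest probe set standing for each gene. Of the 9 measured WNT ligand genes in all, 0 passed with the fold limit, and their median log2 fold change was 0.25, beside 0.04 for all genes. Of 12 genes that act on the lipid, transport and release of ligands, among them Notum, which removes the lipid, 0 passed with the fold limit (median 0.04), and 3 were higher at an adjusted p under 0.05. These were Wls, the carrier that brings WNT proteins to the cell surface (0.86, limma adjusted p = 0.00528), Porcn, the acyltransferase that attaches their lipid (0.59, adjusted p = 0.015), and the cargo receptor gene Tmed10 (0.41, adjusted p = 0.0381). Wls stood at 9.82 and 10.04 in animals 14 and 17, 9.46 in animal 6, and 9.00, 9.21 and 9.01 in the wild-type mice.

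Among 16 receptors and coreceptors, 4 passed as higher and 0 as lower (median 0.42). The largest was Ror1, a receptor of Wnt5a, with a log2 fold change of 1.49 (SE 0.25, limma adjusted p = 0.00648), and the others were the frizzled receptors Fzd1 (1.37), Fzd8 (1.13) and Fzd2 (1.02). Ror1 read 7.13 and 7.35 in animals 14 and 17, 6.19 in animal 6, and 6.16, 5.80 and 5.29 in the wild-type mice. The bright receptors Ryk and Fzd4 had log2 fold changes of 0.24 (adjusted p = 0.194) and 1.41 (adjusted p = 0.0335). The count of 4 became 1 without animal 14 and 0 without animal 17.

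Among 13 secreted or membrane-bound inhibitors, 6 passed as higher and 3 as lower (median 0.77). Among the lower genes is Frzb itself, which the genotype removes, and over the other 12 genes 2 passed as lower and the median was 0.98. Sfrp4, a relative of Frzb, was higher by 1.5 on the log2 scale (limma adjusted p = 0.00289), and Sost, the osteocyte-made inhibitor sclerostin, was lower, with a log2 fold change of -2.57 (adjusted p = 0.00124), as was Dkk1 (-1.05, adjusted p = 0.00659). The other genes that passed as higher were Dkk2 (2.13), Sfrp2 (1.89), Dkk3 (1.64), Apcdd1 (1.32) and Sfrp1 (1.19). Wif1, which binds WNT ligands directly, differed by 0.50 (limma adjusted p = 0.0692). The higher count became 2 without wild-type animal 8-1 and 3 without animal 14 or 17, and the lower count became 1 without animal 17.

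Of 17 genes of the intracellular relay 0 passed with the fold limit (median 0.11), and its brightest member Ctnnb1, which encodes β-catenin, differed by 0.02 (limma adjusted p = 0.906). Of 11 genes often induced by canonical signals, Nkd1 (1.63, adjusted p = 0.00129) and Nkd2 (1.21, adjusted p = 0.00284), which restrain dishevelled, passed as higher, while Ccn4 (0.61, adjusted p = 0.011) did not pass with the fold limit. Myc was lower at 0.05 (-0.79, limma adjusted p = 0.0049). The list's median was 0.61, and the count of 2 became 1 without animal 6-1, 8-1, 14 or 17. Of 22 genes of the polarity and calcium branches, 3 passed as higher, namely Nfatc4 (1.2), Nfatc2 (1.14) and Prickle2 (1.07), and the median was 0.01. That count became 0 without animal 14 or wild-type animal 8-1 and 1 without animal 17. At an adjusted p under 0.05 with no fold limit, 3 relay genes were higher and 2 lower. The lower ones were Lef1 (-0.81, limma adjusted p = 0.0184) and Btrc (-0.46, adjusted p = 0.0325). By the same rule 4 polarity and calcium genes were higher and 2 lower. Here the lower ones were Celsr3 (-0.86, limma adjusted p = 0.0122) and Daam1 (-0.79, adjusted p = 0.00518). The differences between the lists were not tested.

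**Figure D4:**
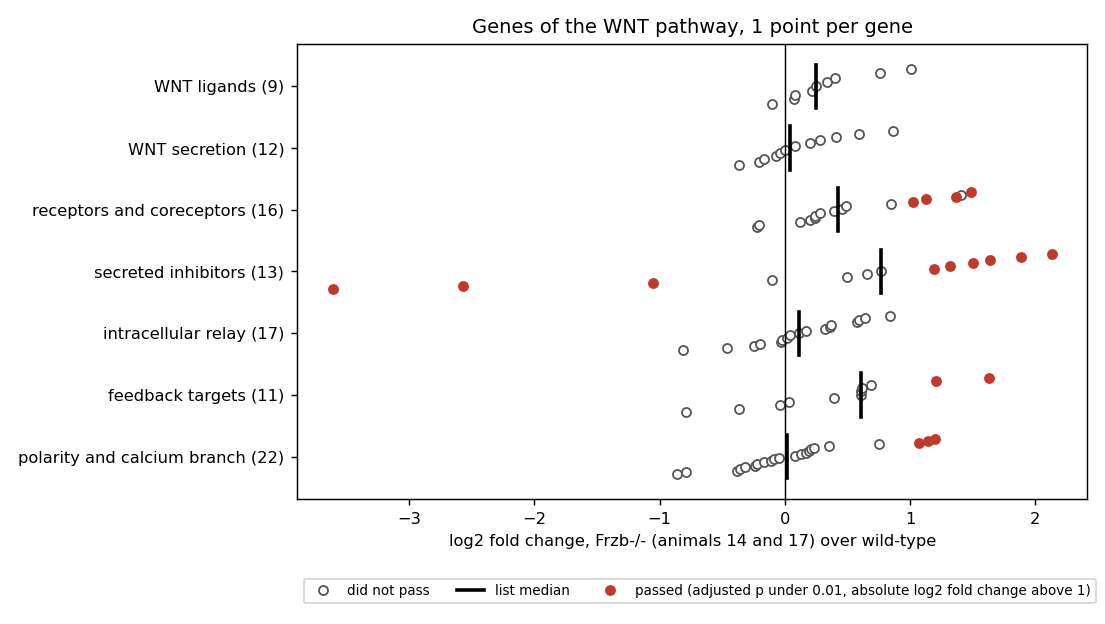
Log2 fold change of Frzb-/- (animals 14 and 17) over wild-type mice for each gene of 7 WNT pathway lists (genes measured in brackets), with filled points for genes that passed and a bar at each list's median. The 9 ligand genes lie between -0.10 and 1.01 with 0 passing, and the secreted inhibitors span -2.57 (Sost) to 2.13, with the deleted Frzb at -3.61.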

How the data were processed

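RNA of 6 mice was hybridised to Affymetrix Mouse Genome arrays. Control probe sets and those called absent had been taken out, and the authors computed log2 expression values by RMA (affy 1.20.0 in the submitters' processing notes); the deposited table holds these log2 values for 30618 probe sets. RMA normalizes all arrays to 1 distribution, so a value is relative to the other probe sets. Arrays have no read depth, and the number of mice limits the precision.

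Genes came from the platform's annotation (677 probe sets with several genes and 4851 with none were not used for genes), and positions and promoters from RefSeq GRCm38.p6. Frzb-/- animals 14 and 17 were compared with 3 wild-type mice by limma 3.58.1 in R 4.3.3 (lmFit, eBayes), and animal 6 in a fit of 3 groups. The fit was tested on simulated data. The probe set brightest on average over the arrays stood for its gene. All members, all other WNT ligands, up to 4 genes of each pathway list (its 2 brightest, and the 2 that changed most among those passing) and the 3 genes most like each of 3 members could be named. Fzd2, Fzd8, Dkk1, Prickle2, Wls, Porcn, Tmed10, Notum, Myc and the marker genes were named to spell out a count or list after their values had been seen. Lef1, Btrc, Celsr3, Daam1, Dkk2, Dkk3, Sfrp1, Sfrp2 and Apcdd1 were named in the same way. The members and lists were chosen with earlier results of these data known. Alternatives were the choice of arrays, normalization, filter, moderation, weights and the probe sets of a gene. Replicate numbers follow the order of deposit alone. Figures were drawn with matplotlib 3.10.9.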

Additional observations from a re-analysis of the deposited data

Results flagged for a closer look

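Wnt5b in animal 6, the array used in neither group, read 7.59 at 1422602_a_at and 7.12 at 1439373_x_at, above every wild-type array at both probe sets (highest wild-type values 7.24 and 6.82). Among all probe sets, 34.4% had animal 6 above every wild-type array, and the limma adjusted p of animal 6 against the wild-type mice was 0.678 and 0.693.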

How the results depend on the processing

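The count of ligand genes that passed with the fold limit was 0 under every alternative that was run. The count at an adjusted p under 0.05 was 1 (Wnt9a) and ranged from 0 to 2 when each array was left out in turn. It was 0 with animal 6 in the Frzb-/- group, 0 with probe sets above the median intensity alone, where 2 ligand genes were left, and 0 without moderation of the spread. It was 2 (Wnt5a and Wnt9a) with arrays centred on their brighter probe sets, and 3 (Wnt5a, Wnt5b and Wnt9a) by the mean or by any of a gene's probe sets.

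Over all probe sets, 2275 passed with the fold limit, 432 to 1868 with each array left out (974 without wild-type animal 8-1 and 432 without animal 17), 1419 above the median intensity, and 0 both without moderation (9835 at an unadjusted p under 0.05) and with animal 6 in the Frzb-/- group (3534 at an unadjusted p under 0.05). At an adjusted p under 0.05 the count was 8124, 4513 to 6609 with each array left out, 5199 above the median intensity, 3 with animal 6 in the Frzb-/- group and 0 without moderation. Centring moved that split to 4487 higher and 3951 lower, from 3592 higher and 4532 lower, and the median log2 fold change of all probe sets to 0.07. For single ligand probe sets, 111 of 135 alternatives left it unchanged whether the probe set was called at 0.05. These include alternatives for probe sets that were not called in the main fit. A call was lost in 22, gained in 2 and turned round in direction in 0. Out of 12 alternatives for each called probe set, the fit with animal 6 apart included, the call held in 10 for Wnt5a at 1436791_at and in 7 for Wnt9a. It held in 6 for Wnt5a at 1437673_at and in 3 for Wnt5b at 1439373_x_at. Of values that were not called, 3 changed sign, Wnt4 at 1450782_at to -0.08 without animal 14 and -0.01 without wild-type animal 9-1, and Wnt7a to 0.01 without wild-type animal 9-1; apart from fewer arrays or probe sets, the cause was not tested. No paired analysis was possible because the replicate numbers only follow the order of deposit.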
